A study of Mus musculus with 6 samples.

Results

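The genes described here are 10 immediate early genes: the AP-1 genes Fos, Fosb, Fosl2, Jun, Junb and Jund, the zinc finger genes Egr1 and Egr2, and Ier2 and Ier3. They were taken by symbol from the 35869 genes listed in each library. Expression was measured by RNA sequencing of polyadenylated RNA in 6 libraries of mouse acute myeloid leukaemia cells made with a retrovirus carrying the MLL-AF9 fusion oncogene, a study that examined the role of CHAF1B, a subunit of the histone chaperone CAF-1, in leukaemic cells. All cells, controls included, carried floxed Chaf1b alleles and CreERT2, a Cre recombinase released by an oestrogen receptor ligand, and all grew with the cytokines SCF, IL6 and IL3. Knockout (KO) means 3 libraries from cells induced with β-estradiol, and WT means 3 libraries from cells that got the ethanol vehicle. Cells were lysed 48 hours after induction. The ligand was given to KO cells alone, so the effects of ligand and deletion cannot be told apart. The labels call the controls clonal but do not say how many clones were used or whether replicates were separate cultures, so the p-values measure only how far these samples spread, and that spread may be technical.

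Immediate early genes are switched on within minutes of a growth factor, cytokine or stress signal, without new protein synthesis, and most of their transcripts are short-lived. FOS and JUN proteins pair through leucine zippers to form AP-1, which binds DNA at AP-1 sites and at cyclic AMP response elements (CREs). JUN proteins can also pair with each other, while FOS proteins need a JUN partner. EGR proteins bind GC-rich DNA through zinc fingers and are known in myeloid cells for their part in macrophage differentiation, as AP-1 is.

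The promoters of 3 AP-1 genes are shown because their transcripts give the main contrasts below: Jun varied most among the 8 genes tested, Junb was the most abundant AP-1 gene, and Fos followed another pattern. Each line holds the 250 bases before the start site, 5′ to 3′ on the gene's strand, from RefSeq's promoter table on GRCm38.p6 (mm10). Capitals mark matches on either strand to any of 6 motifs: the CRE TGACGTCA, its core TGACG (which the full CRE contains), the AP-1 site TGAGTCA, the variant TGACATCA, the EGR site GCGNGGGCG and the CArG box, which serum response factor binds.
Fos, chr12:85473640-85473889, plus strand: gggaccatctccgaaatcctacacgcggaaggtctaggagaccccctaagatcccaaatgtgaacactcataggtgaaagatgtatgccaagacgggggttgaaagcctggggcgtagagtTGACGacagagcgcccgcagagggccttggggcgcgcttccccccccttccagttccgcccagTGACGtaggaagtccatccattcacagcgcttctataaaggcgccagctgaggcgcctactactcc
Jun, chr4:95052223-95052472, minus strand: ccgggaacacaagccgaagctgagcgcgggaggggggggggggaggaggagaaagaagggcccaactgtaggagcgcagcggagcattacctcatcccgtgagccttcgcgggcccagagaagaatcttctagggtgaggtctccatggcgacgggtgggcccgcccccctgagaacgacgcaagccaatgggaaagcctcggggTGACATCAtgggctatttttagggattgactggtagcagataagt
Junb, chr8:84978749-84978998, minus strand: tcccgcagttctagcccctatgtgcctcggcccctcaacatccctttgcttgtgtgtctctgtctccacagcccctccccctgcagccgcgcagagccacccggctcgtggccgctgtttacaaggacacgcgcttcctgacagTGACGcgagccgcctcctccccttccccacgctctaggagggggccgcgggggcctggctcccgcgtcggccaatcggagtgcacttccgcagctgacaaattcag

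Fos held 2 CRE cores, starting 129 and 66 bases before the start site. Jun held 1 match to TGACATCA, starting 45 bases before it, and Junb held 1 CRE core, starting 106 bases before it. Among the 32851 promoters of the table, 17.8% held a CRE core and 2.93% held TGACATCA in a window of this length. The full CRE was found in 1.55%, the AP-1 site in 4.46%, the EGR site in 4.70% and the CArG box in 1.47%. These matches describe the letters in this window alone. RefSeq places Fos at 85473890 to 85477274 of chromosome 12, Jun at 95049036 to 95052222 of chromosome 4 and Junb at 84976909 to 84978748 of chromosome 8. In GENCODE M21, Jun, Jund and Ier2 each consist of 1 exon. Jun overlaps the antisense gene Junos, Jund overlaps the antisense gene Gm11175, and Junb overlaps the end of Prdx2. The sources used here do not give the strand setting of the counting, so these 3 genes' values are uncertain to that extent. Junos was listed at 0.1 TPM in each KO library and at 0 in each WT library, and Gm11175 was not listed under that symbol. Prdx2 was as abundant as Junb, at 114.5 to 128.2 TPM in KO and 133.7 to 144.9 TPM in WT, with its highest value in WT replicate 1.

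Chaf1b, the deleted gene, had values of 17.7, 14.4 and 14.2 TPM in KO replicates 1, 2 and 3 and of 48.6, 49.0 and 50.6 TPM in WT replicates 1, 2 and 3, which fits the labels. TPM (transcript abundance scaled to a fixed library total) corrects for transcript length, so levels can be compared between genes, but it keeps no depth. The libraries were not equally alike. On the log2(TPM + 1) scale, replicates 2 and 3 of either group had a Pearson's r of 0.998 over all genes tested, whereas replicate 1 correlated with replicate 2 at 0.984 in WT and at 0.991 in KO. The label of myeloid leukaemia was checked on 13 markers, all of which passed the filter on low values, with 5 called higher and 2 lower in KO. Ptprc, the pan-leukocyte antigen, lay between 25.6 and 29.7 TPM. Mpo, the granule enzyme myeloperoxidase, lay at 19.4 to 128 TPM in WT and at 1018 to 2311 TPM in KO, and Elane rose too, while Hoxa9 and Hoxa10 fell. Markers of other cell types were mostly called higher or not called, and none lower. In KO 4 of 7 tested monocyte and macrophage markers were higher, 4 of 4 B cell, 2 of 4 mast cell and basophil, 2 of 4 erythroid, 2 of 3 megakaryocyte, 2 of 3 stromal and 0 of 1 T and NK cell markers. Over all tested genes 12.9% were called higher and 6.11% lower. Some of these markers were near the floor, such as Cd79a at 1.0 to 1.3 TPM in KO and 0.5 to 0.7 TPM in WT. Of the other B cell markers called, Cd79b was at 25.5 to 30.8 TPM in KO and 16.5 to 20.2 TPM in WT. Igll1 was at 4.5 to 10.1 TPM in KO and 1.1 to 1.2 TPM in WT, and Vpreb1 at 2.9 to 6.3 and 0.9 to 1.2 TPM. Pf4, a platelet chemokine, was at 11.3 to 28.8 TPM in KO and at most 0.3 TPM in WT, and Mcpt8, a basophil protease, at 50.1 to 103 TPM in KO and at most 20.6 TPM in WT. The defining markers Ebf1 of B cells, Cd4 and Cd8a of T cells and Fcer1a of mast cells were at 0 in every library. The summed level of 11 late granulocyte markers was 74.6 and 93.6 TPM in WT replicates 2 and 3, 295 TPM in WT replicate 1 and 418 to 1015 TPM in KO. Of these 11 markers 8 were tested and 4 were called higher in KO, and Ly6g, a neutrophil surface marker, stood at 62.0 TPM in WT replicate 1 against at most 26.4 TPM elsewhere. In bulk RNA, fewer cells of a type and less RNA per cell cannot be told apart. Because WT replicate 1 stood apart, the counts of calls below are given with and without it.

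With all libraries, none of the immediate early genes was called different between KO and WT. Of the 10, Egr1 and Fosb did not pass the filter of at least 1 TPM in at least 3 libraries. The other 8 were tested with limma over 13575 genes, and 0 had an adjusted p under 0.05, whereas 19.0% of all tested genes did (2575, with 1745 higher and 830 lower). At an unadjusted p under 0.05 the number was also 0 of 8. The KO and WT values overlapped for all 8, while 42.8% of tested genes showed no overlap. Log2 fold changes were positive for 4 and negative for 4, with a median of 0.020 beside 0.0065 over all tested genes. In 6 of the 8, and in Egr1, WT replicate 1 had the highest value of all libraries, which was so for 24.2% of tested genes.

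**Figure D1:**
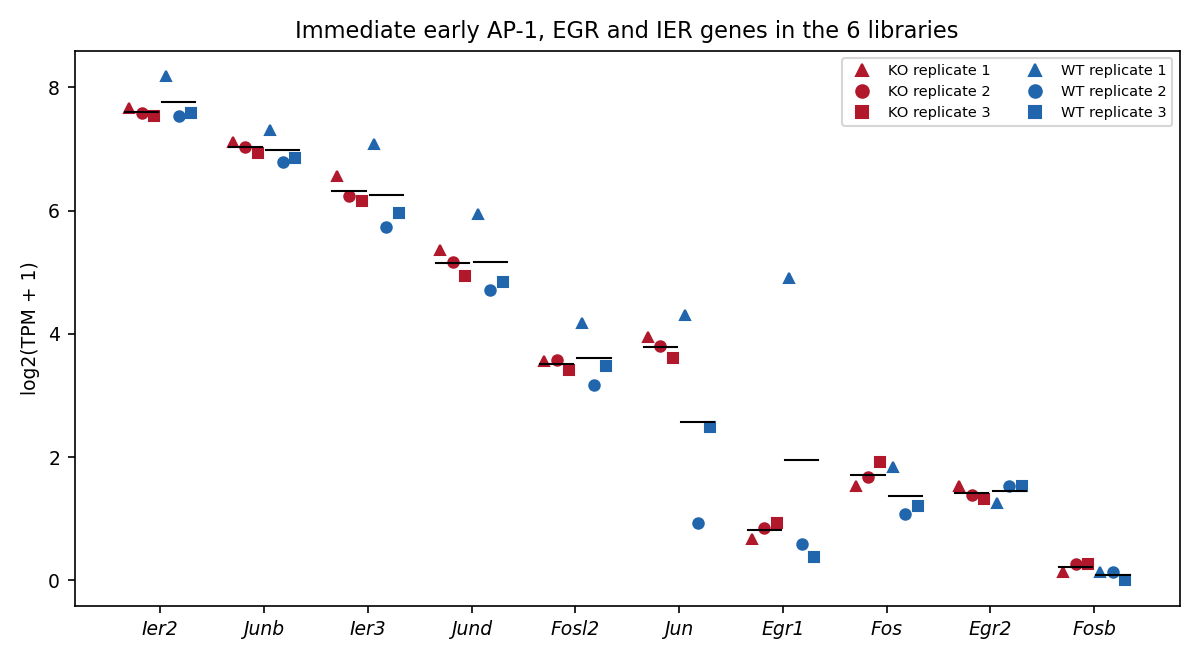
Each point is 1 library (red KO, blue WT; triangle, circle and square for replicates 1, 2 and 3) and each black line the mean of 3 libraries, on a log2(TPM + 1) scale, with genes ordered by their mean TPM over 6 libraries. WT replicate 1 lies above every other library for 7 of the 10 genes, most of all for Egr1, where it was at 29.0 TPM and the other 5 libraries at 0.3 to 0.9 TPM.

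By level, Ier2 was highest with a mean of 207 TPM over the 6 libraries, followed by Junb (128 TPM), Ier3 (80.9 TPM) and Jund (36.3 TPM). This order held in 6 of 6 libraries. Fosl2 and Jun followed with means of 11.1 and 10.5 TPM, and they could not be ordered, Fosl2 being higher in 2 of 6 libraries. Fos and Egr2 had means of 1.98 and 1.70 TPM, with Fos higher in 3 of 6 libraries. Fosb was lowest, at 0.117 TPM. Summed over the 6 AP-1 genes, transcripts of the JUN side outweighed those of the FOS side at least 11.9-fold in every library. Junb gave 61.5% to 75.7% of that sum, the larger shares being in WT replicates 2 and 3.

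On the FOS side, Fos, which encodes the namesake partner of AP-1, stood at 1.9, 2.2 and 2.8 TPM in KO replicates 1, 2 and 3 and at 2.6, 1.1 and 1.3 TPM in WT replicates 1, 2 and 3. Every KO value exceeded those of WT replicates 2 and 3, and WT replicate 1 lay among the KO values. The KO mean was 2.30 ± 0.46 TPM and the WT mean 1.67 ± 0.81 TPM (SD, n = 3 each), a log2 fold change of 0.34 (SE 0.22, 95% interval -0.20 to 0.88, limma adjusted p = 0.31, exact two-sided permutation p = 0.3). With 3 against 3 libraries the exact test cannot go below 0.1. Fold changes here are of TPM + 1, which understates changes of genes as low as Fos.

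Fosl2, which encodes FRA-2, a FOS protein with slower kinetics, was at 10.8, 10.9 and 9.6 TPM in KO and at 17.1, 8.0 and 10.1 TPM in WT replicates 1, 2 and 3. Except for the high value of WT replicate 1, the groups lay within the same range (log2 fold change -0.09, SE 0.25, limma adjusted p = 0.81). Fosb, whose product is best known from neurons, was at 0.1, 0.2 and 0.2 TPM in KO and at 0.1, 0.1 and 0 TPM in WT, in steps of the 0.1 TPM to which the values were rounded. At that level the files cannot order the libraries.

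Jun showed the widest spread of any tested AP-1, EGR or IER gene, and the spread lay inside the WT group. Jun encodes the AP-1 subunit that JNK phosphorylates and that drives its own promoter. It was at 14.4, 12.9 and 11.2 TPM in KO replicates 1, 2 and 3, and at 18.7, 0.9 and 4.6 TPM in WT replicates 1, 2 and 3. Values of KO thus lay close together, between WT replicate 1 above and WT replicates 2 and 3 below. The means were 12.8 ± 1.6 TPM in KO and 8.07 ± 9.39 TPM in WT (SD, n = 3 each). The log2 fold change was 1.21 with an SE of 0.78 and a 95% interval of -0.68 to 3.10 (limma adjusted p = 0.30, exact two-sided permutation p = 0.4), and the interval reached from a fall to a rise.

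Junb, a JUN protein that can oppose Jun and restrains myeloid growth, was at 138, 130 and 121 TPM in KO and 158, 110 and 114 TPM in WT replicates 1, 2 and 3. All 3 KO values lay between WT replicate 1 and the other WT libraries (log2 fold change 0.05, SE 0.14, 95% interval -0.30 to 0.39, limma adjusted p = 0.84). Jund, the JUN gene usually expressed without a stimulus, was at 40.2, 35.0 and 29.5 TPM in KO and 60.3, 25.2 and 27.6 TPM in WT, the same arrangement as Junb (log2 fold change -0.01, SE 0.33, limma adjusted p = 0.99).

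Egr1, on chromosome 18 from 34861207 to 34864956, encodes a zinc finger factor induced by growth factors through ERK signalling. It was at 0.6, 0.8 and 0.9 TPM in KO and at 29.0, 0.5 and 0.3 TPM in WT replicates 1, 2 and 3. One library alone carried the transcript at more than 1 TPM, 72.5 times the mean of WT replicates 2 and 3. Among 9856 listed genes with at least 5 TPM in WT replicate 1 and a nonzero mean in the other WT libraries, this was the ratio of rank 3. The WT mean of 9.93 ± 16.5 TPM (SD, n = 3) therefore describes no library, and the exact two-sided permutation p was 1. In the fit without the filter, over 22884 genes, Egr1 had a log2 fold change of -1.14 (SE 1.29, limma adjusted p = 0.54). The remaining 5 libraries had KO values at 0.6 to 0.9 TPM and WT values at 0.3 and 0.5 TPM, too near the rounding step to be read as a difference.

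Egr2, a relative of Egr1 known in myeloid cells as a macrophage regulator, did not share this rise. It stood at 1.9, 1.6 and 1.5 TPM in KO and at 1.4, 1.9 and 1.9 TPM in WT, with its lowest value in WT replicate 1 (log2 fold change -0.03, SE 0.12, limma adjusted p = 0.86).

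Ier2, a short nuclear protein gene on chromosome 8 (84661331 to 84662852), was at 202, 190 and 184 TPM in KO and 290, 184 and 191 TPM in WT replicates 1, 2 and 3. Without the high value of WT replicate 1 the other 5 libraries spanned 184 to 202 TPM, with KO and WT intermixed (log2 fold change -0.17, SE 0.17, limma adjusted p = 0.50). Ier3, which encodes the stress-induced survival protein IEX-1 and lies on chromosome 17 (35821713 to 35822911), was at 93.4, 74.4 and 70.2 TPM in KO and 134, 52.1 and 61.4 TPM in WT. Its KO values again lay between WT replicate 1 and the other WT libraries (log2 fold change 0.06, SE 0.35, 95% interval -0.78 to 0.90, limma adjusted p = 0.92).

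WT replicate 1 lay above the mean of the other WT libraries in most of these genes. Its TPM was at least 2 times the mean of WT replicates 2 and 3 for 4 of the 8 tested genes (Jun at 6.80 times, Ier3 at 2.36, Jund at 2.28 and Fos at 2.17), which was so for 3.70% of all tested genes. Ratios for Fosl2, Ier2 and Junb were 1.89, 1.54 and 1.41, and for Egr2 0.737. The median ratio was 2.03 for the 8 genes and 1.00 for all tested genes. This library was chosen for the comparison because it stood apart, so the ratios are a description. The summed level of the late granulocyte markers given above was also higher in it than in the other WT libraries. Much of that came from Ngp, at 109.5 TPM against 14.6 and 21.5 TPM, and from Ly6g. Cxcr2 (21.4 against 0.5 and 0.4 TPM) and Mmp9 (14.9 against 0.8 and 1.0 TPM) were higher too. So was every other marker of that list except Ltf and Retnlg, some by little, such as Camp (2.6 against 2.3 and 2.4 TPM). Ltf and Retnlg were at no more than 0.3 TPM in any WT library, too low to compare. The part of these markers in the ratios was not tested. Its file header, unlike the other 5, mentions a replacement, without saying of what.

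Without WT replicate 1, limma called Fos and Jun higher in KO and none of the 8 lower. Fos had a log2 fold change of 0.58 (SE 0.14, limma adjusted p = 0.031) and Jun of 2.08 (SE 0.45, limma adjusted p = 0.028). In the same fit 21.6% of all tested genes were called higher, so 2 of 8 is near the background. Jund (log2 fold change 0.38), Ier3 (0.47), Junb (0.21) and Fosl2 (0.19) were positive without a call, with limma adjusted p of 0.076, 0.054, 0.051 and 0.21. Ier2 stood at 0.034 and Egr2 at -0.12. The median over the 8 genes was 0.295, beside 0.0020 over all tested genes, and it was 0.0195 with all libraries. For these 8 genes the median ratio of WT replicate 1 to the mean of the other WT libraries was 2.03. Its removal thus raised most of their changes by itself, those of Fos and Jun included. The gap between this median and that of all tested genes is therefore no separate result. Leaving out KO replicate 1 as well gave 5 calls of 8 (Fos, Jun, Junb and Ier3 higher, Egr2 lower), in a fit that called 55.8% of all tested genes. The Egr2 call (limma adjusted p = 0.049) rests on 1.6 and 1.5 TPM in KO against 1.9 TPM in both WT libraries, only a few rounding steps apart.

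**Figure D2:**
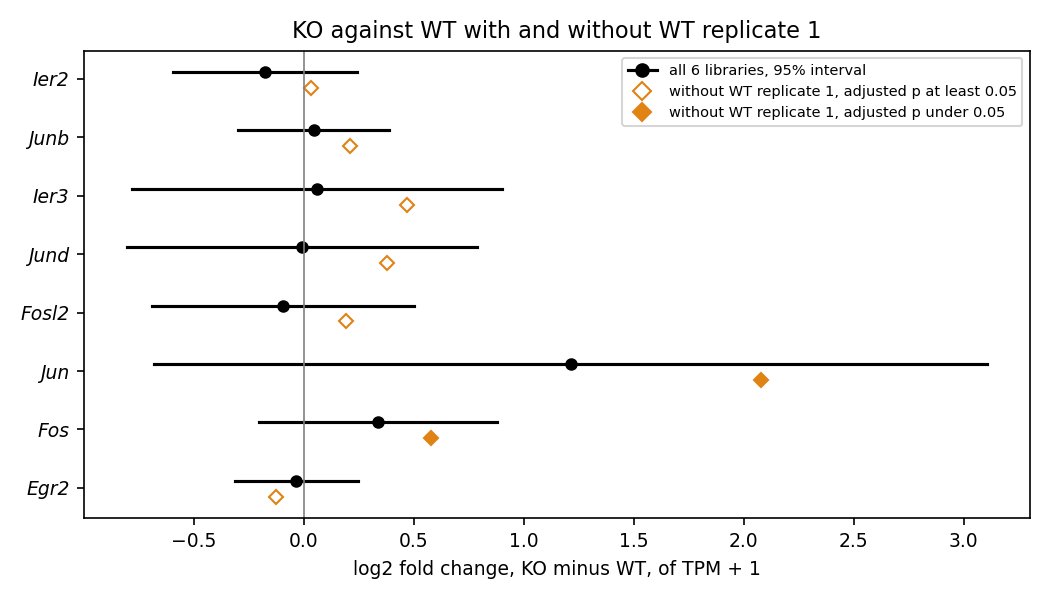
Black points and lines are limma log2 fold changes (KO minus WT, of TPM + 1) with 95% intervals from all 6 libraries, and diamonds the same change without WT replicate 1, filled where the adjusted p was under 0.05. Every black interval crosses 0, and the filled diamonds are those of Jun at 2.08 and Fos at 0.58.

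Jun, Junb, Jund and Ier3 ranked the 6 libraries identically. From high to low the order was WT replicate 1, KO replicates 1, 2 and 3, WT replicate 3 and WT replicate 2. The same order was seen in 74 of 13575 tested genes (0.545%), and it was picked out after the values were seen. Junb and Jund, though differing in level, had a Pearson's r of 0.990 over the 6 libraries on the log2(TPM + 1) scale, and Junb and Ier3 of 0.989. Fosl2 and Ier2 also peaked in WT replicate 1 (r of 0.94 with each other). Fos correlated with Jun at 0.864 and with Ier2 at 0.429, and with Egr2 at -0.874. These r values rest on 6 libraries, which the genes share, and on the single high library in most pairs.

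**Figure D3:**
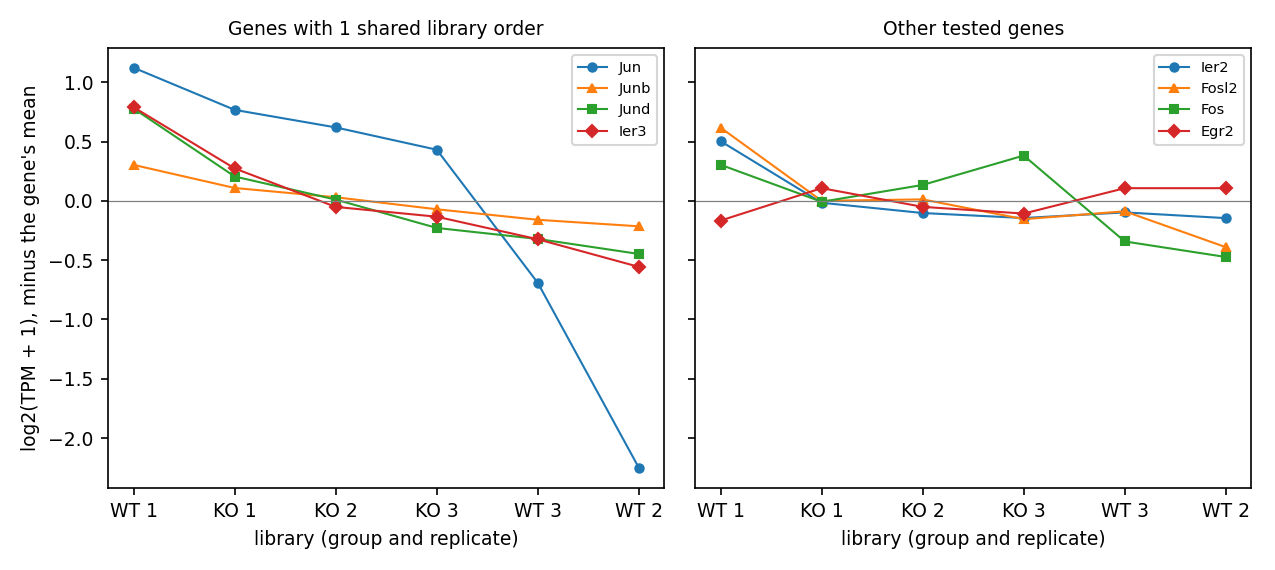
Lines join each gene's log2(TPM + 1), minus its own mean over 6 libraries, with the libraries placed in the order shared by Jun, Junb, Jund and Ier3 (left) and the other 4 tested genes in the same order (right). Jun falls to its lowest value in WT replicate 2 (0.9 TPM), Fos peaks in KO replicate 3 (2.8 TPM), and Egr2 is lowest in WT replicate 1 (1.4 TPM).

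Other genes were ranked by their likeness to Fos and Jun over the 6 libraries, among 8927 named genes whose mean reached 5 TPM. Nearest to Jun were Nfil3, a bZIP transcription factor (r of 0.991), then Hcar2, Sorl1, Gpi1 and Plin2 (r of 0.984 down to 0.982). Nfil3 was at 12.2, 4.9 and 8.2 TPM in WT replicates 1, 2 and 3 and at 9.8 to 11.8 TPM in KO, a narrower span than that of Jun. Hcar2, a receptor for hydroxy acids, spanned as wide a range as Jun, with 15.6, 0.3 and 2.2 TPM in WT and 5.7 to 8.3 TPM in KO. Nearest to Fos were Myl6, Fam109a, Tmbim6, Oaz3 and Cd300c2 (r of 0.989 down to 0.974). None of these 10 genes was called with all libraries, their limma adjusted p lying between 0.298 and 0.457. They were picked for following Fos and Jun, which were not called either, so this is no separate result. The largest r values among 8927 genes over 6 libraries are high by selection. Egr1 was not ranked, having failed the filter.

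Around these genes, 10 lists of pathway genes were read from the same fit. Of their 101 tested genes, 11 were called higher and 6 lower, 16.8% in all beside 19.0% of all tested genes (12.9% higher and 6.11% lower). The count was 3 without KO replicate 2 and 0 without KO replicate 3, WT replicate 2 or WT replicate 3 (22, 26 and 26 at an unadjusted p under 0.05 in limma), and 43 (31 higher and 12 lower) without WT replicate 1. Those 43 are 42.6% of the list genes, where 35.7% of all tested genes were called (21.6% higher and 14.2% lower). Under quantile normalization it was 8 higher and 14 lower. Single genes below are calls with all libraries unless WT replicate 1 is said to be left out, and shares near these backgrounds are not results about a list.

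Of the other immediate early genes, the longest list, 6 were higher (12.9% of all tested genes) and 2 lower (6.11%) of 25 tested, with a median log2 fold change of 0.115. Btg2, an antiproliferative gene and p53 target, was at 26.3 ± 2.48 TPM in KO against 14.9 ± 0.58 in WT (SD, n = 3, also for the genes that follow; log2 fold change 0.77, limma adjusted p = 0.011). Its WT values were 15.6, 14.6 and 14.6 TPM, so WT replicate 1 did not stand apart there. Phlda1 rose from 1.37 ± 0.47 to 4.27 ± 0.80 TPM (1.16 on the log2 scale, limma adjusted p = 0.015) and Arc, a gene known from synapses, from 0.567 ± 0.058 to 3.77 ± 1.55 TPM (1.55, adjusted p = 0.017). Ier5 rose from 26.8 ± 4.87 to 39.2 ± 1.85 TPM (0.54, limma adjusted p = 0.035). Myc, the growth-promoting transcription factor, fell from 107 ± 2.36 to 77.2 ± 9.76 TPM (-0.47, limma adjusted p = 0.024), and Pim1, a cytokine-induced kinase, from 725 ± 76.8 to 554 ± 38.4 TPM (-0.38, adjusted p = 0.035). WT replicate 1 was at least 2 times the mean of the other WT libraries for 7 of the 25. Among them were Zfp36l1, an RNA decay factor, at 10.9, 0.2 and 0.5 TPM in WT, and Klf2, at 51.0, 7.0 and 6.3 TPM in WT (log2 fold change -0.99, SE 0.74, limma adjusted p = 0.37). Zfp36l1 and Klf2 were chosen after their values were seen. Without WT replicate 1, 12 of the 25 were higher and 2 lower, beside 21.6% and 14.2% of all tested genes. That library was the highest of all for 14 of the 25, and for 24.2% of all tested genes. For those 14, leaving it out raised the change by itself.

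**Figure D4:**
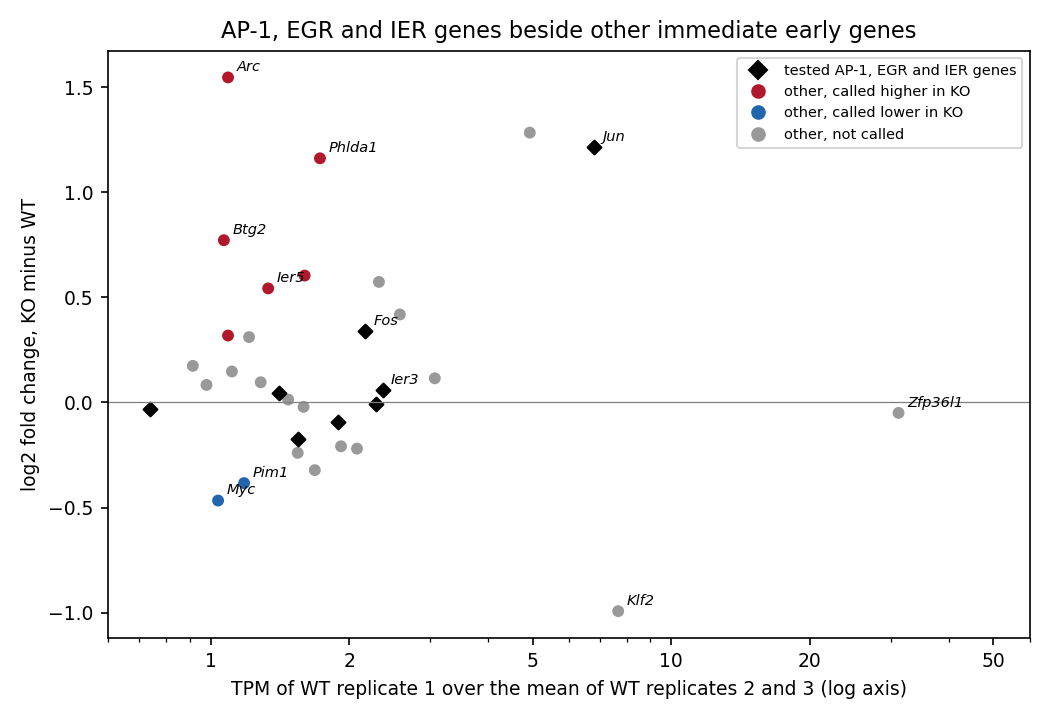
Each point is a tested gene, with the ratio of WT replicate 1 to the mean of WT replicates 2 and 3 on a log axis and the log2 fold change (KO minus WT, all libraries) on the other; black diamonds are the 8 tested AP-1, EGR and IER genes, circles the 25 other immediate early genes, coloured where called. The called circles lie at ratios from 1.04 to 1.73, while Klf2 (7.67) and Zfp36l1 (31.1) lie far to the right without a call.

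Among other AP-1 and related leucine zipper genes, 0 of 12 tested were called higher and 2 lower. These were Atf1, a CRE-binding factor, which was at 49.7 ± 4.03 TPM in KO against 60.9 ± 0.47 in WT (log2 fold change -0.29, limma adjusted p = 0.034), and Atf4, the effector of the integrated stress response, from 581 ± 23.5 to 470 ± 51.8 TPM (-0.31, adjusted p = 0.048). The call for Atf4 was also lost without WT replicate 1 (limma adjusted p = 0.067), without a filter on low values (0.068) and without a mean-variance trend (0.064). Without WT replicate 1 the list held 2 higher calls, Jdp2 and Maff, and 1 lower, Atf1. Of 3 tested EGR relatives and co-repressors 0 were called (2 at an unadjusted p under 0.05 in limma). Nab1 was at 19.8 ± 0.87 TPM in KO against 17.7 ± 4.91 TPM in WT, and Nab2, a co-repressor that EGR factors induce, at 5.13 ± 0.40 and 3.50 ± 1.04 TPM (SD, n = 3; limma adjusted p = 0.52 and 0.091). With WT replicate 1 left out, 1 of the 3 was higher, Nab2 (limma adjusted p = 0.019). Egr3 and Egr4 were below the filter, with at most 0.1 TPM.

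Upstream, serum response factor and its partners switch on immediate early promoters through CArG boxes. Of 6 tested genes of this list 0 were called (1 at an unadjusted p under 0.05 in limma). Srf was at 54.6 ± 1.10 TPM in KO against 59.2 ± 7.09 TPM in WT, and Mkl1 at 32.4 ± 0.47 and 35.2 ± 3.10 TPM (SD, n = 3; limma adjusted p = 0.41 and 0.29). Elk3 was higher and Elk1 lower without WT replicate 1. Of 17 MAP kinases, their kinases and RAS and RAF genes, Map2k7 and Hras were lower and Map2k4 higher, by -0.30, -0.21 and 0.42 on the log2 scale (limma adjusted p = 0.030, 0.042 and 0.033). Map2k7 and Map2k4 encode the kinases that activate JNK, and they moved in opposite directions. These 3 calls were also made without WT replicate 1, with no other in the list. Of 10 ERK feedback genes 1 was higher, Dusp4, a MAP kinase phosphatase, with 1.80 ± 0.44 TPM in KO and 0.733 ± 0.153 in WT (log2 fold change 0.68, limma adjusted p = 0.029), a call lost under quantile normalization (adjusted p = 0.13). Without WT replicate 1 the count was 4 of 10, with Dusp6, Dusp5 and Etv4 also higher (limma adjusted p = 0.020, 0.022 and 0.025). In that fit 21.6% of all tested genes were called higher. These 3 added genes had WT replicate 1 at 1.41 (Dusp5) to 2.07 (Etv4) times the mean of WT replicates 2 and 3. Leaving that library out thus raised their changes by itself. Of 6 receptor genes for the cytokines in the medium 0 were called (2 at an unadjusted p under 0.05 in limma). Csf2rb, the beta chain shared by the IL3 receptor, was at 100 ± 6.43 TPM in KO against 90.6 ± 19.9 TPM in WT, and Csf2rb2 at 55.8 ± 7.93 and 38.5 ± 12.5 TPM (SD, n = 3; limma adjusted p = 0.47 and 0.12). Leaving out WT replicate 1, 3 of the 6 were higher: Csf2rb (limma adjusted p = 0.022), Csf2rb2 (0.019) and Il3ra (0.047). Beside this stand 21.6% of all tested genes called higher in that fit. For these 3, WT replicate 1 was at 1.44 (Csf2rb) to 1.69 (Csf2rb2) times the mean of WT replicates 2 and 3. Their changes were thus raised by leaving it out. Csf2rb and Csf2rb2 are close copies that could have exchanged reads.

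Of 11 tested AP-1 and EGR target genes 1 was higher, Il1b, the inflammatory cytokine, with 3.90 ± 1.49 TPM in KO and 0.20 ± 0.17 in WT (log2 fold change 1.99, limma adjusted p = 0.013). Without WT replicate 1 the count was 6 of 11, beside 21.6% of all tested genes called higher in that fit. The added calls were Nab2, Plaur, Gadd45a, Mmp9 and Hmox1. The median of the 11 went from 0.155 to 0.487 on the log2 scale, beside 0.0020 over all tested genes. Each added gene had WT replicate 1 above the mean of WT replicates 2 and 3, from 1.62 times (Nab2) to 16.6 times (Mmp9). Leaving that library out thus raised their changes by itself, and AP-1 or EGR activity was not tested. Of 8 genes of RNA decay through AU-rich elements, which many immediate early transcripts carry, 0 were called (3 at an unadjusted p under 0.05 in limma). Mapkapk2 was at 477 ± 5.92 TPM in KO against 465 ± 13.8 TPM in WT, and Khsrp at 227 ± 7.53 and 258 ± 21.9 TPM (SD, n = 3; limma adjusted p = 0.50 and 0.10). Zfp36l1 was higher and Hnrnpd and Elavl1 were lower without WT replicate 1. Of 7 heat shock genes, Hspa1a rose from 1.5 ± 0.61 to 31.6 ± 12.7 TPM and Hspa1b from 2.6 ± 0.78 to 32.8 ± 11.9 TPM (log2 fold changes 3.65 and 3.19, limma adjusted p = 0.011 for each). Both encode the inducible HSP70 chaperone and are near-identical copies whose reads may be divided arbitrarily. Their KO replicate 1 had the lowest KO value, at 17.3 and 19.8 TPM, and no WT library exceeded 3.1 TPM. The other 5 tested heat shock genes were not called with all libraries. When WT replicate 1 was left out, 4 of these 5 were lower: Hspe1 (limma adjusted p = 0.020), Hsph1 (0.032), Hsp90aa1 (0.026) and Hspa8 (0.028). In that fit 14.2% of all tested genes were called lower. For these 4, WT replicate 1 was at 0.668 (Hsph1) to 0.807 (Hsp90aa1) times the mean of WT replicates 2 and 3. Leaving it out thus lowered their changes by itself.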

How the data were processed

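Messenger RNA was measured in 3 KO and 3 WT libraries, grouped by the genotype in the labels. The submitters' processing notes name featureCounts 1.6.2, STAR 2.6.1e, Trim Galore 0.4.2 and cutadapt 1.9.1, and build mm10. The sources used here do not give the annotation, the strand setting or the step to TPM. Values were deposited by the authors as TPM, rounded to 1 decimal and summing to 999924 to 999935 per library. Depth per sample and counting error are therefore unknown.

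A gene was kept if 3 or more of the 6 libraries reached 1 TPM (13575 kept, 22294 left out). The difference of KO and WT in log2(TPM + 1) was tested two-sided with limma 3.58.1 in R 4.3.3, using genotype alone and a variance trend. Over the kept genes p was adjusted by Benjamini and Hochberg's method, and an adjusted p under 0.05 was a call. Exact permutation tests used mean TPM. The fit was tested on simulated data, where it recovered 71.6% of 1.5-fold and 91% of 2-fold changes. The changed genes were drawn from those with a mean of at least 5 TPM, so these shares do not cover Fos or Egr2. The simulated noise was alike in all 6 libraries, so this does not cover libraries that stand apart, as WT replicate 1 does. No 2 libraries of a group had identical TPM for more than 8.48% of tested genes, so no pair was merged as a library deposited more than once.

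The genes and lists were chosen with earlier results of these data known, and no list was tested as a set. From each list the text names up to 4 called genes in the majority direction and up to 2 in the other, by adjusted p, or, with no call, the 2 with the highest mean TPM. Marker genes, and list genes named as called only without WT replicate 1, are not covered by this rule and were picked with their values in view. Alternatives were other pseudocounts, filters, scalings and variance models, left-out libraries and the replicate number as a block. Promoter sequences off chromosome 18 were found for 8 of the 10 genes. Some sequences are not used here.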

Additional observations from a re-analysis of the deposited data

How the results depend on the processing

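No AP-1, EGR or IER gene was called under other pseudocounts and scalings, without a mean-variance trend and with the replicate block (0 of 8), without a filter (0 of 10) or at a mean of at least 5 TPM (0 of 7). Leaving out 1 library gave 0 to 2 of them, 0 to 4850 of all genes and 0 to 43 of the pathway list genes. The highest values came without WT replicate 1. The 0 of all genes came without KO replicate 3, where 3381 had an unadjusted p under 0.05, and other low counts were 15, 25 and 109 without WT replicate 3, WT replicate 2 and KO replicate 2. Without KO replicate 1 and WT replicate 1 the counts were 5, 7569 and 53. With library weights from limma they were 3 (Fos and Jun higher, Egr2 lower), 9429 and 66. The weight of WT replicate 1 was 0.123, and the estimation of the weights stopped before its tolerance was reached. Egr2 lay at 1.4 to 1.9 TPM in all libraries, so its calls rest on a few rounding steps. A mean of at least 5 TPM, which tests 10041 genes, gave 1578 of all genes and 11 of the list genes. Of all calls, 67.8% were higher in KO with TPM as deposited and 43.9% under quantile normalization, where the median log2 fold change of all genes was -0.073.

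The replicate block left 333 calls over all genes, 3 among list genes and 0 among the 8. Same-numbered KO and WT libraries deviated from their group means with correlations of -0.199, -0.145 and -0.164. These values show no pairing by number. They cannot exclude a shared origin, because each group mean rests on few libraries and the first ones stand apart. Signs turned, with no call, in 6 genes. Leaving out 1 library moved the log2 fold change of Fosl2 between -0.31 and 0.19, Junb between -0.049 and 0.21, Jund between -0.23 and 0.38, Egr2 between -0.12 and 0.013, Ier2 between -0.29 and 0.034 and Ier3 between -0.20 and 0.47. Without both first libraries Fosl2 was at 0.17 and Jund at 0.28, and with library weights at 0.018 and 0.17. Jund was at 0.0059 under median-of-ratios scaling. Over the alternatives run, the limma adjusted p lay between 0.00073 and 0.98 for Fos and between 0.015 and 0.64 for Jun. The cause of these changes was not tested. TPM hold no counts, so how far depth limits the low genes (Fos, Fosb, Egr1 and Egr2) is unknown.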
